A study of Homo sapiens with 6 samples.

Results

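The genes described here handle amino acids: the cytosolic aminoacyl-tRNA synthetases, the enzymes that make asparagine, serine, glycine and cysteine, the regulators of the amino acid stress response, and an amino acid transporter. They were chosen by gene symbol, with the brightest probeset standing for each gene. The rule takes 114 protein-coding symbols of the reference gene table, and 33 of them were among the 14812 named genes on the array. These were 17 of 20 cytosolic synthetases, 8 of 9 synthesis enzymes, 7 of 8 stress regulators and 1 of 60 transporters. The mitochondrial synthetases (17 symbols) and the other transporters were not analysed here, so the label's word transport rests on SLC38A12 alone.

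The cells were C4-2, a castration-resistant subline of the human prostate cancer line LNCaP, kept in medium with hormones. The 6 cultures, 2 biological replicates in each of 3 groups, were measured on Affymetrix Human Gene 2.0 ST arrays. Controls had DMSO, a group had NU7441 at 1 µM over 24 h, and in a knockdown group transient siRNA against PRKDC, the gene of DNA-PKcs, acted over 96 h. NU7441 inhibits the kinase DNA-PKcs, which works in the joining of broken DNA ends. The labels mention a control siRNA pool, but name only DMSO for the control samples, so an effect of transfection and an effect of depletion cannot be told apart here, and the treatments also differ in time.

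When amino acids run short, uncharged tRNA activates the kinase GCN2, which phosphorylates the initiation factor eIF2. General translation then slows while the mRNA of the transcription factor ATF4 is translated more, so ATF4 protein can rise without its transcript. ATF4 binds C/EBP-ATF composite elements at genes for amino acid synthesis, uptake and tRNA charging, and induces DDIT3 and TRIB3, which feed back on it. The same genes are also driven through mTORC1, which senses leucine and arginine and raises ATF4 in growing cells.

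The element was searched for because its target genes are the members here. It was written as TGATGNAA on either strand, in RefSeq promoter windows of 300 bases on GRCh38.p14 (250 before and 50 after a start site). Windows were held for 28 of the 33 members, and 9 of these (32.1%) had the element in at least 1 window, beside 3.17% of the 9704 tested protein-coding genes with a window. Counted by window, the shares were 20.9% of 43 member windows and 3.62% of 35116 windows of all genes. It was found in 7 of 14 synthetases (AARS1, CARS1, GARS1, IARS1, MARS1, NARS1 and TARS1) and in 2 of the 14 other members with a window, ASNS and ATF3. The match is a string of letters, not a measured binding site. The 3 windows below, each read 5′ to 3′ along the gene with the element in capitals, belong to a gene that rose under both treatments (ASNS), a gene that fell under NU7441 (IARS1) and a gene that was higher after knockdown than under NU7441 (CARS1).
ASNS: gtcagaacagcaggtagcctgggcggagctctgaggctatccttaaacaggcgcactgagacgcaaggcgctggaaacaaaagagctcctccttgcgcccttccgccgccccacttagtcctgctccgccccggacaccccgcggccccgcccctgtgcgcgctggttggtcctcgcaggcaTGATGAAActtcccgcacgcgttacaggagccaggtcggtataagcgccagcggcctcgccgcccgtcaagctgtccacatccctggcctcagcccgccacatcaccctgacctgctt
IARS1: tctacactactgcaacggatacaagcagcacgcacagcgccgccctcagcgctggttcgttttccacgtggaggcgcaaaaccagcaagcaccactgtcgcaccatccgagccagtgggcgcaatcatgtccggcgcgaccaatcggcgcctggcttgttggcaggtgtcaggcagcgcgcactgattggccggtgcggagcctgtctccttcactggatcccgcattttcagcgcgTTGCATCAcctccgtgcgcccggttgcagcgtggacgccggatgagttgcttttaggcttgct
CARS1: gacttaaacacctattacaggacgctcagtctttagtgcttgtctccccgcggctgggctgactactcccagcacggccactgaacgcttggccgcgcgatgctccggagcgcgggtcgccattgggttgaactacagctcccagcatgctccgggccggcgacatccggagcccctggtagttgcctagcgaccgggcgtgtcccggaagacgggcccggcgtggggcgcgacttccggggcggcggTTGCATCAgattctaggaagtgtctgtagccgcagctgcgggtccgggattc
The ASNS window is chr7:97872359-97872658 on the minus strand, and its element TGATGAAA begins 68 bases before the start site and reads along the gene. The windows of IARS1 (chr9:92293648-92293947, minus strand) and CARS1 (chr11:3057374-3057673, minus strand) hold the element on the opposite strand, as TTGCATCA, beginning 13 and 2 bases before the start site. In the other genes past a threshold it was TTTCATCA in GARS1, 33 bases before the start site, and TGATGCAA in NARS1, at base 15 after it.

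The lineage genes were present: 7 of 11 luminal prostate markers had a named probeset, and KLK3, which encodes prostate-specific antigen, lay between 710 and 1213 on all arrays, in the linear intensity units of the deposited values. Of the markers of other cell types 5 had a named probeset, and KRT14, CD14, VWF and DCN lay at 33.3 or below on every array, with KRT5 between 24.5 and 63.2. No value was under 16. The median over all probesets was 31.5 and 31.6 in controls, 28.4 and 27.6 after knockdown, and 24.6 and 26.0 under NU7441. The 95th percentiles were closer, at 291 and 294 in controls, 296 and 297 after knockdown, and 289 and 299 under NU7441. At the lower limit were 453 and 444 probesets in controls, 974 and 1206 after knockdown, and 3800 and 1471 under NU7441. The arrays thus differed mainly among dim probesets. The NU7441 arrays also lay farthest apart: 9 of the 33 members differed by more than 0.5 on the log2 scale between them, 2 between the knockdown arrays and 0 between the control arrays. PRKDC was not among the named probesets and is not analysed here.

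In NU7441-treated cells the amino acid genes moved in both directions within every family but the transporter. ASNS, the asparagine synthetase, and CBS, the first enzyme from homocysteine to cysteine, rose, as did DDIT3, which encodes the stress factor CHOP, and the synthetases for glutamine (QARS1), valine (VARS1, on the brighter of its 2 probesets) and asparagine (NARS1). The regulators ATF4, ATF5 and TRIB3, the serine synthesis enzymes PSAT1 and PSPH, and the synthetases for leucine, isoleucine, tyrosine, glutamate with proline, and serine fell. After knockdown ASNS was the 1 member that rose. Between the treatments, 5 members were higher after knockdown, 4 of them synthetases, and CBS was lower.

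The counts rest on limma's moderated test over all 14812 genes, called at a Benjamini-Hochberg adjusted p under 0.05, and values after ± are its moderated standard errors of log2 fold changes (n = 2 per group). Under NU7441, 6 members rose and 10 fell, or 48.5% of 33, where 33.2% of all genes passed (10.8% higher, 22.4% lower). Both NU7441 arrays lay above both controls in 10 members and below them in 14, where 22.7% and 47.3% of all genes and 37.4% and 39.2% of those brighter than the median gene did so. Among genes brighter than the median gene, as 32 of the members were, 44.7% passed, so the members' share was near that background. The median log2 fold change was 0.05 for the members, −0.23 for all genes and −0.05 for the brighter ones. After knockdown 1 of 33 rose and 0 fell in limma's test, where 0.77% of all genes passed (0.284% higher, 0.486% lower, and 1.13% of the brighter genes). At an unadjusted p under 0.05 there were 9 members higher and 4 lower (27.3% and 12.1%), beside 6.68% and 12.9% of all genes and 12.7% and 10.1% of the brighter ones. The median was 0.13 beside −0.09 for all genes and 0.03 for the brighter ones. Between the treatments 6 of 33 passed, or 18.2%, where 8.67% of all genes (5.83% higher, 2.84% lower) and 15.2% of the brighter ones did. RNA per cell and the share of cells in a given state cannot be told apart in such bulk samples.

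Scaling and single arrays bear on these counts. With each array centred on its median, which lies in the dim range where the arrays differed, 12 members rose and 3 fell under NU7441. Quantile normalization gave 5 and 11. A fit that leaves 1 array in a group takes its spread from the other groups. A call kept or gained there does not test that group's own spread. Without control replicate 1 or without control replicate 2, most of the 16 calls under NU7441 were lost, and all 16 kept their direction. The median log2 fold change of the synthetases was then −0.17 and −0.3. Calls on ASNS, QARS1 and LARS1 under NU7441 held in all 14 alternatives, IARS1 was lost only without control replicate 1, and CBS only without control replicate 2.

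The regulators of the response split. ATF4, its central transcription factor, read 968 and 970 in controls, 719 and 757 under NU7441, and 753 and 645 after knockdown. Every treated array lay below both controls. The fall under NU7441 was −0.39 ± 0.10 on the log2 scale (1.31-fold, adjusted p = 0.0183), and after knockdown the difference was −0.48 ± 0.10 with an adjusted p of 0.0650. Quantile normalization brought the knockdown value to −0.50 with an adjusted p of 0.0445, and the call under NU7441 was lost with median centring, without the mean-variance trend and without either control array. These arrays read transcripts, not ATF4 protein.

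ATF5, a close relative of ATF4 that is likewise controlled in translation, read 184 and 206 in controls, 97.0 and 125 under NU7441, and 158 and 122 after knockdown. It fell 1.77-fold under NU7441 (−0.82 ± 0.21, adjusted p = 0.0177) and stood at −0.49 ± 0.21 after knockdown (adjusted p = 0.243), with all treated arrays below the controls. TRIB3, a pseudokinase that dampens ATF4 and AKT signalling, separated the treatments. Its intensities were 236 and 252 in controls, 153 and 174 under NU7441, and 288 and 247 after knockdown. TRIB3 fell under NU7441 (−0.58 ± 0.16, adjusted p = 0.0235), was at 0.13 ± 0.16 after knockdown, and was 1.64-fold higher after knockdown than under NU7441 (0.71 ± 0.16, adjusted p = 0.0304). The calls on ATF5 and TRIB3 against control were lost with median centring and without either control array.

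DDIT3 went the other way from ATF4. It read 49.7 and 51.6 in controls, 114 and 88.2 under NU7441, and 94.2 and 67.3 after knockdown, so that all 4 treated arrays were above the controls. The rise under NU7441 was 1.98-fold (0.99 ± 0.25, adjusted p = 0.0168, lost without either control array), and the knockdown value was 0.65 ± 0.25 (adjusted p = 0.203). The difference between treatments was −0.34 ± 0.25, with a 95% interval from −0.90 to 0.23.

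The remaining regulators did not pass in any comparison as deposited. ATF3, an immediate stress factor, read 54.9 and 49.0 in controls, 44.5 and 73.1 under NU7441, and 45.5 and 36.5 after knockdown. DDIT4, which encodes the mTORC1 inhibitor REDD1, read 453 and 426, then 373 and 608, then 571 and 420 in the same order. SESN2, the leucine sensor Sestrin2, read 29.3 and 26.9, then 49.0 and 25.3, then 32.7 and 41.3. In each of these genes the NU7441 arrays lay on both sides of the controls, and their largest log2 fold change was −0.49 ± 0.29, for ATF3 between the treatments. Without NU7441 replicate 1 the log2 fold changes under NU7441 were 0.49 for ATF3, 0.47 for DDIT4 and −0.15 for SESN2. Without NU7441 replicate 2 they were −0.22, −0.24 and 0.8 in the same order.

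**Figure D1:**
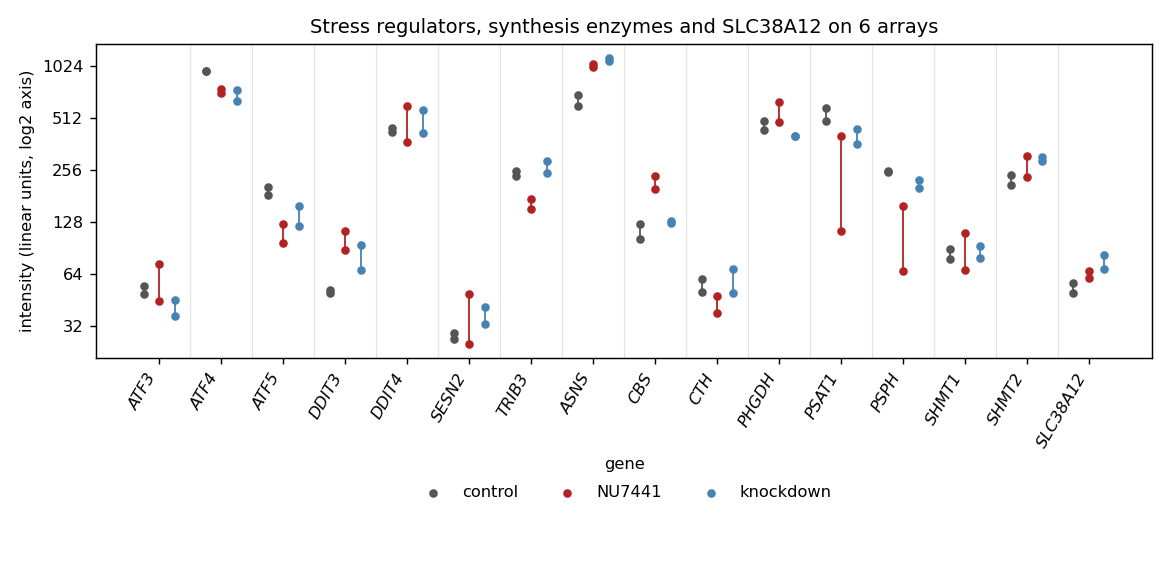
Intensity of each stress regulator, synthesis enzyme and SLC38A12 on the 6 arrays (linear units on a log2 axis), with 1 point per array and a line joining the 2 arrays of a group. ASNS is above the controls on all 4 treated arrays, ATF4 is below them on all 4, and PSAT1 and PSPH have wide gaps between the NU7441 arrays.

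Among the synthesis enzymes, ASNS was the member that rose under both treatments. It makes asparagine from aspartate with glutamine as nitrogen donor, and is a classical ATF4 target. The intensities were 698 and 604 in controls, 1013 and 1054 under NU7441, and 1143 and 1106 after knockdown. All 4 treated arrays stood above both controls, and the knockdown arrays above the NU7441 arrays. The rise was 1.59-fold under NU7441 (0.67 ± 0.10, adjusted p = 0.00183) and 1.73-fold after knockdown (0.79 ± 0.10, adjusted p = 0.0178). These comparisons share the control arrays. The treatments differed by 0.12 ± 0.10, with a 95% interval from −0.09 to 0.34. The knockdown call was lost without any of the 4 control or knockdown arrays, without the mean-variance trend and with 15 subtracted from each intensity.

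CBS, which condenses homocysteine with serine on the way to cysteine, answered NU7441. Its probeset read 125 and 102 in controls, 236 and 200 under NU7441, and 127 and 130 after knockdown. Both NU7441 arrays were above all others. CBS rose 1.93-fold under NU7441 (0.95 ± 0.19, adjusted p = 0.00690), was at 0.19 ± 0.19 after knockdown, and was lower after knockdown than under NU7441 (−0.76 ± 0.19, adjusted p = 0.0407). Some assemblies carry a near-identical copy of CBS that its probes may also read. CTH, the next enzyme of the path, read 60.3 and 50.6, then 37.9 and 47.7, then 68.5 and 49.6, and passed in no comparison as deposited (−0.38 ± 0.27 under NU7441).

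Of the 5 serine and glycine enzymes, 2 passed under NU7441, or 40.0% beside 44.7% of the brighter genes and 33.2% of all genes. PHGDH, which takes the first step from a glycolytic intermediate, read 493 and 440 in controls, 638 and 485 under NU7441, and 404 and 407 after knockdown. It stood at 0.26 ± 0.15 under NU7441 (adjusted p = 0.199, 95% interval −0.07 to 0.59) and did not pass in the other comparisons. PSAT1 and PSPH, which take the second and the last step, fell under NU7441.

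PSAT1 read 591 and 496 in controls, 114 and 407 under NU7441, and 447 and 365 after knockdown. PSPH read 249 and 254, then 66.6 and 158, then 226 and 202. In both genes NU7441 replicate 1 was far below replicate 2, and both NU7441 arrays were below the controls. The falls were 2.52-fold for PSAT1 (−1.33 ± 0.45, adjusted p = 0.0469) and 2.45-fold for PSPH (−1.30 ± 0.33, adjusted p = 0.0169). The PSAT1 call was kept in 5 of 14 alternatives and the PSPH call in 9 of 14. Without NU7441 replicate 1 both calls were kept, with log2 fold changes of −0.41 and −0.67. After knockdown the values were −0.42 ± 0.45 and −0.24 ± 0.33. The PSPH difference between treatments, 1.06 ± 0.33, had an adjusted p of 0.0756.

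The hydroxymethyltransferases that split serine into glycine and a one-carbon unit did not pass as deposited. SHMT1, the cytosolic form, read 78.5 and 89.2 in controls, 111 and 67.5 under NU7441, and 78.9 and 93.4 after knockdown. SHMT2, the mitochondrial form, read 242 and 210, then 311 and 233, then 289 and 306, with 0.40 ± 0.17 after knockdown (adjusted p = 0.247). For SHMT2 both knockdown arrays were above the controls, and for SHMT1 the groups overlapped. SHMT2 passed limma's test under NU7441 with median centring (0.57, adjusted p = 0.0431). Its log2 fold change under NU7441 was 0.05 without NU7441 replicate 1 and 0.46 without replicate 2. As a class, 2 synthesis enzymes rose and 2 fell of 8 under NU7441, with a median log2 fold change of 0.15.

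The cytosolic synthetases, which load each amino acid onto its tRNA, also split: of 17, 3 rose and 5 fell under NU7441, or 47.1% beside 33.2% of all genes and 44.7% of the brighter ones. Their median log2 fold change was −0.24, beside −0.23 for all genes and −0.05 for the brighter ones. After quantile normalization these medians were −0.21, 0.01 and 0.09, and with median centring the class median was 0.08. The synthesis enzymes were at 0.15 and the stress regulators at 0.12 in the same comparison. Of the 7 stress regulators 1 was higher and 3 were lower, or 57.1% beside the same 33.2% and 44.7%. The stress regulator median was −0.15 without NU7441 replicate 1 and −0.24 without replicate 2, and the synthesis enzyme median −0.08 and 0.43. After knockdown the medians of the synthetases, enzymes and regulators were 0.14, 0.06 and 0.13. No test was made between classes.

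LARS1, the leucyl-tRNA synthetase, which also reports leucine to mTORC1, had the largest fall of the class. It read 351 and 360 in controls, 113 and 171 under NU7441, and 234 and 186 after knockdown. All treated arrays were below the controls, and the NU7441 arrays below the knockdown arrays. The fall under NU7441 was 2.55-fold (−1.35 ± 0.21, adjusted p = 0.00269), and the knockdown value was −0.77 ± 0.21 (adjusted p = 0.103).

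IARS1, which charges isoleucine, separated the treatments. It read 467 and 426 in controls, 179 and 269 under NU7441, and 444 and 487 after knockdown. The knockdown arrays overlapped the controls, and both NU7441 arrays were lower than all others. The fall was 2.03-fold (−1.02 ± 0.19, adjusted p = 0.00467), and IARS1 was 2.12-fold higher after knockdown than under NU7441 (1.08 ± 0.19, adjusted p = 0.0112).

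EPRS1, the fused synthetase for glutamate and proline, had the same order of groups. It read 552 and 565 in controls, 359 and 438 under NU7441, and 637 and 594 after knockdown, with no overlap between any of the groups. EPRS1 fell under NU7441 (−0.49 ± 0.13, adjusted p = 0.0170, lost with median centring, without the trend and without either control array) and was higher after knockdown than under NU7441 (0.63 ± 0.13, adjusted p = 0.0189).

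GARS1 and CARS1, for glycine and cysteine, differed between the treatments without passing against control. GARS1 read 635 and 584 in controls, 473 and 508 under NU7441, and 734 and 656 after knockdown. CARS1 read 191 and 175, then 136 and 176, then 266 and 262. For both genes the knockdown arrays were above the controls, and for GARS1 the NU7441 arrays were below them. After knockdown GARS1 was higher than under NU7441 by 0.50 ± 0.11 (adjusted p = 0.0278) and CARS1 by 0.77 ± 0.18 (adjusted p = 0.0321). The GARS1 difference was lost with median centring.

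**Figure D2:**
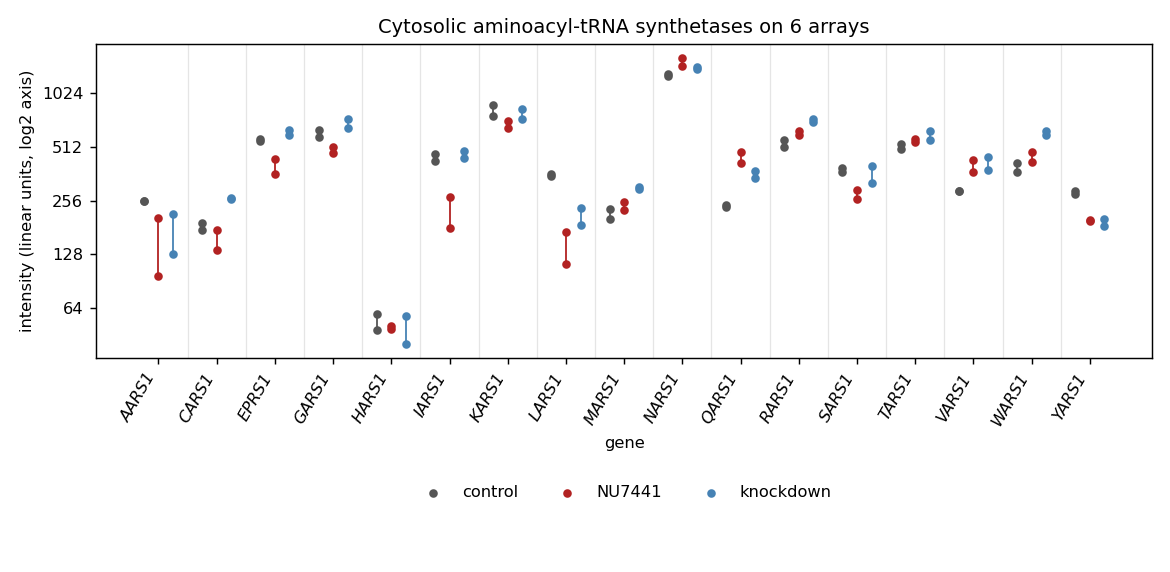
Intensity of the 17 cytosolic synthetases on the 6 arrays (linear units on a log2 axis), with 1 point per array and a line joining the 2 arrays of a group. LARS1 and IARS1 drop under NU7441, QARS1 is higher on all 4 treated arrays, and IARS1, EPRS1, GARS1 and CARS1 lie higher after knockdown than under NU7441.

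The synthetases that rose under NU7441 were fewer. QARS1, which charges glutamine, read 235 and 243 in controls, 481 and 416 under NU7441, and 341 and 376 after knockdown. All 4 treated arrays were above the controls, and the NU7441 arrays were highest. QARS1 rose 1.87-fold under NU7441 (0.91 ± 0.14, adjusted p = 0.00223) and was at 0.59 ± 0.14 after knockdown (adjusted p = 0.0764). NARS1, which charges asparagine, the product of ASNS, read 1316 and 1282, then 1460 and 1605, then 1434 and 1392. Its rise under NU7441 was small (0.24 ± 0.07, adjusted p = 0.0371), and the call was kept in 5 of 14 alternatives.

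VARS1, which charges valine, had a pair of named probesets that disagreed. The brighter read 288 and 291 in controls, 430 and 370 under NU7441, and 381 and 452 after knockdown, and rose under NU7441 (0.46 ± 0.14, adjusted p = 0.0334). The dimmer read 108 and 128, then 67.0 and 51.1, then 75.4 and 57.4. On the brighter probeset all treated arrays were above the controls, and on the dimmer all were below them. With the mean of both, VARS1 was at −0.27 under NU7441 and did not pass, so no direction for VARS1 holds across its probesets.

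YARS1 and SARS1, for tyrosine and serine, fell under NU7441. YARS1 read 280 and 291 in controls, 197 and 200 under NU7441, and 184 and 201 after knockdown. SARS1 read 368 and 392, then 293 and 261, then 321 and 400. YARS1 was lower on all treated arrays (−0.53 ± 0.15 under NU7441, adjusted p = 0.0253, and −0.57 ± 0.15 after knockdown, adjusted p = 0.0924). SARS1 was below the controls on both NU7441 arrays (−0.46 ± 0.15, adjusted p = 0.0424, kept in 5 of 14 alternatives), and its knockdown arrays lay on both sides of the controls. The YARS1 call was lost with median centring and without either control array.

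WARS1, the tryptophanyl-tRNA synthetase, an interferon-induced gene, lay at the threshold after knockdown. It read 369 and 414 in controls, 422 and 480 under NU7441, and 631 and 600 after knockdown. The knockdown arrays were above all others, at 0.65 ± 0.12 against control (adjusted p = 0.0501) and 0.45 ± 0.12 against NU7441 (adjusted p = 0.0524). Both passed after quantile normalization (adjusted p = 0.0358 and 0.0369). A dimmer WARS1 probeset read 104 and 112 in controls, 165 and 141 under NU7441, and 180 and 182 after knockdown, in the same order.

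AARS1, for alanine, read 256 and 255 in controls, 97.4 and 205 under NU7441, and 215 and 128 after knockdown. All treated arrays were below the controls, but the replicates lay far apart, and the NU7441 difference of −0.85 ± 0.34 had an adjusted p of 0.0804. RARS1, for arginine, read 561 and 513, then 598 and 630, then 709 and 734, with 0.43 ± 0.10 after knockdown (adjusted p = 0.0796). MARS1, for methionine, read 230 and 201, then 251 and 227, then 305 and 298, with 0.49 ± 0.15 after knockdown (adjusted p = 0.128). For both the knockdown arrays were above all others.

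The last 3 synthetases passed in none of the comparisons as deposited. KARS1, for lysine, read 874 and 767 in controls, 656 and 711 under NU7441, and 731 and 834 after knockdown. TARS1, for threonine, read 496 and 528, then 566 and 544, then 627 and 559. HARS1, for histidine, read 59.1 and 48.5, then 51.1 and 49.0, then 40.5 and 58.1. KARS1 was below the controls on both NU7441 arrays (−0.26 ± 0.11), TARS1 was above them on all treated arrays (0.12 ± 0.11 under NU7441), and the HARS1 groups overlapped. TARS1 passed limma's test under NU7441 with median centring (0.43, adjusted p = 0.0187). KARS1 was at −0.2 under NU7441 without NU7441 replicate 1 and at −0.32 without replicate 2.

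Several of these enzymes sit in the multi-synthetase complex, a cytosolic assembly held together by AIMP scaffold proteins. Of its 7 synthetases named in the table used (EPRS1, IARS1, KARS1, LARS1, MARS1, QARS1 and RARS1), 1 rose and 3 fell under NU7441, with a median log2 fold change of −0.26. Of the 10 outside it 2 rose and 2 fell, with a median of −0.17. The shares that passed, 57.1% and 40.0%, lay on either side of the 44.7% of the brighter genes (33.2% of all genes). This split was made after the values were seen and was not tested. AIMP1, a scaffold protein of the complex, was at 0.32 ± 0.12 under NU7441 (adjusted p = 0.0568) and 0.58 ± 0.12 after knockdown (adjusted p = 0.0572).

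SLC38A12, formerly TMEM104, was the single transporter named in the table used, and belongs to a family of amino acid carriers. It read 56.6 and 49.4 in controls, 66.4 and 60.4 under NU7441, and 82.8 and 68.8 after knockdown. All treated arrays were above the controls, and the knockdown arrays above the NU7441 arrays, but neither difference passed (0.26 ± 0.23 and 0.51 ± 0.23, adjusted p = 0.403 and 0.258).

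**Figure D3:**
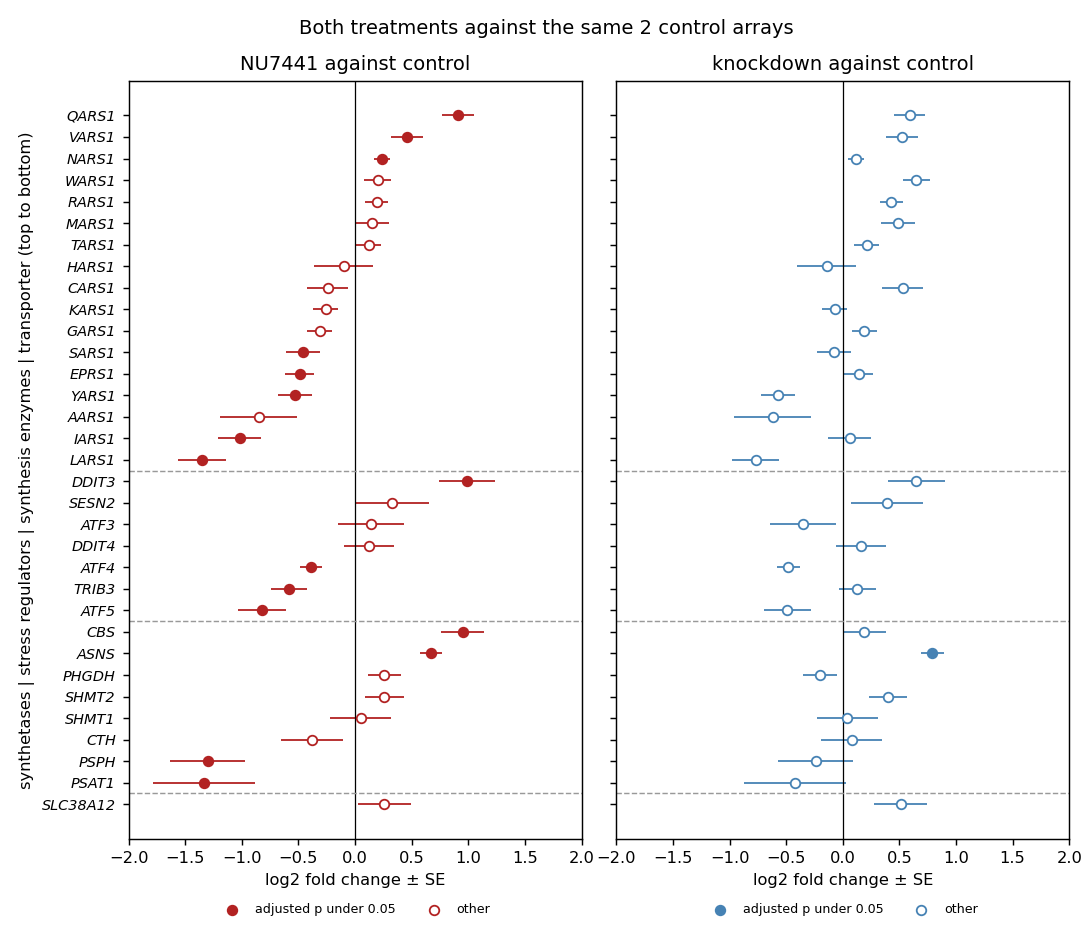
Log2 fold changes of the 33 members for NU7441 (left) and knockdown (right) against the same control arrays, by class and in the order of the NU7441 values. Points are limma estimates with bars of 1 standard error, and filled points have an adjusted p under 0.05: 16 members under NU7441 and ASNS alone after knockdown.

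The small number of calls after knockdown depends on how the spread is estimated. The fit over all 6 arrays shares 1 spread among the groups, and the NU7441 arrays lay farthest apart. With only the control and knockdown arrays in the fit, 15 of the 33 members passed, 9 higher and 6 lower. Of all genes 19.2% did (6.89% higher, 12.3% lower). The share of the brighter genes, the closer background for these members, was not taken for this fit. The higher ones were ASNS, CARS1, MARS1, QARS1, RARS1, VARS1, WARS1, DDIT3 and SHMT2, and the lower ones AARS1, LARS1, YARS1, ATF4, ATF5 and PSAT1. When any control or knockdown array was left out, the ASNS call was lost and other members gained no call. The synthetase median was 0.14 and 0.13 without control replicate 1 and 2. It was 0.12 and 0.19 without knockdown replicate 1 and 2. Both knockdown arrays lay above both controls in 16 members and below them in 9, where 23.4% and 38.2% of all genes and 37.2% and 31.5% of the brighter ones did so.

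**Figure D4:**
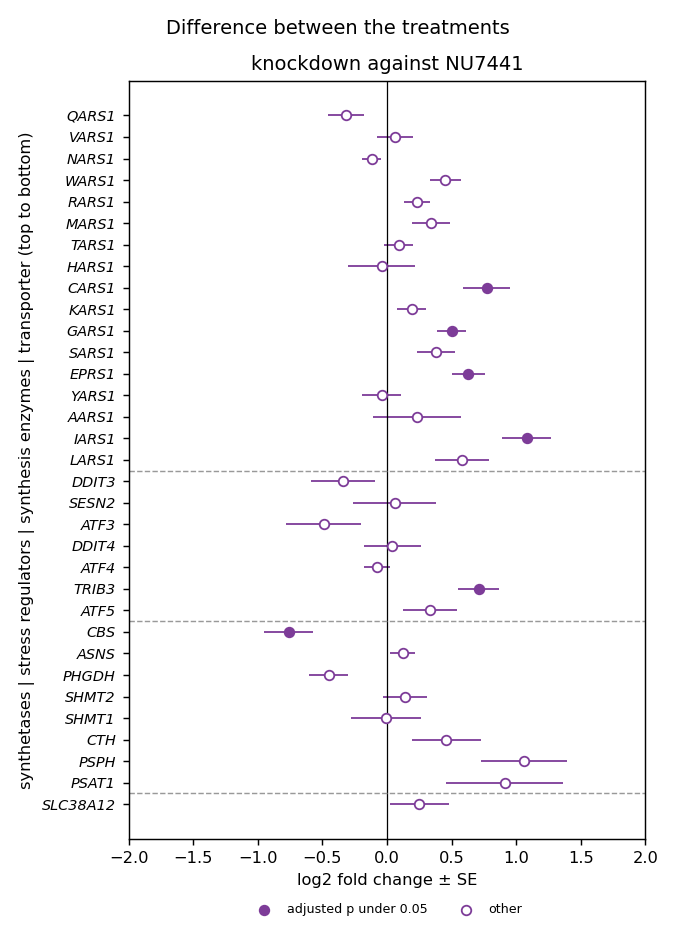
Log2 fold change of each member for knockdown against NU7441, in the order of the plot against control. Points are limma estimates with bars of 1 standard error from the fit over all 6 arrays, and the filled points are CARS1, GARS1, EPRS1, IARS1 and TRIB3 (higher after knockdown) and CBS (lower).

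Between the treatments, both knockdown arrays lay above both NU7441 arrays in 15 members and below them in 4, where 32.9% and 19.6% of all genes and 34.9% and 28.2% of the brighter ones did so. All 4 synthetases that passed were higher after knockdown, and 23.5% of the class passed, beside 8.67% of all genes and 15.2% of the brighter ones, which also leaned higher (9.88% higher, 5.33% lower). With any single array left out, all 6 members that passed kept their direction. Their calls were all lost without knockdown replicate 1 or 2, and most were lost without either control array. In these fits the spread of the lone array's group came from the other groups. IARS1 kept its call in 12 of 14 alternatives, EPRS1 in 9, CARS1 and TRIB3 in 8, GARS1 in 7 and CBS in 6.

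Genes with the element in a printed or counted window did not move as a block. Under NU7441 their log2 fold changes were 0.67 for ASNS, 0.24 for NARS1, 0.15 for MARS1, 0.14 for ATF3, 0.12 for TARS1, −0.24 for CARS1, −0.31 for GARS1, −0.85 for AARS1 and −1.02 for IARS1. After knockdown they were 0.79 for ASNS, 0.53 for CARS1, 0.49 for MARS1, 0.21 for TARS1, 0.19 for GARS1, 0.12 for NARS1, 0.06 for IARS1, −0.35 for ATF3 and −0.62 for AARS1. ASNS was highest in both lists and the values of the others spread to both sides of 0.

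Other genes of amino acid sensing and metabolism were taken from a list of 52, of which 30 had a named probeset. Under NU7441 8 rose and 6 fell, or 46.7%, near the 44.7% of the brighter genes (33.2% of all genes). After knockdown GDF15, a stress-induced cytokine, was the 1 that passed (1.06 ± 0.11, adjusted p = 0.00988), or 3.33% beside 0.77% of all genes. Between the treatments 2 were higher and 5 lower after knockdown, or 23.3% beside 8.67% of all genes and 15.2% of the brighter ones. Of the kinases that phosphorylate eIF2, EIF2AK1 rose under NU7441 (0.83 ± 0.12, adjusted p = 0.00164) and EIF2AK2 fell (−1.12 ± 0.21, adjusted p = 0.00563). EIF2AK3 was at −0.45 ± 0.25 (adjusted p = 0.195), and EIF2AK4, which encodes GCN2, was at 0.06 ± 0.24. After knockdown EIF2AK2 stood at −0.95 ± 0.21 (adjusted p = 0.0708), with both arrays below the controls, and EIF2AK1 at −0.04 ± 0.12 (adjusted p = 0.881). GCN1, the activator of GCN2, rose under NU7441 (0.57 ± 0.15, adjusted p = 0.0179). IMPACT, which competes with GCN2 for GCN1, fell (−1.22 ± 0.34, adjusted p = 0.0238). After knockdown they were at 0.54 ± 0.15 and −0.63 ± 0.34 (adjusted p = 0.0976 and 0.34). IMPACT read 263 and 255 in controls and 75.6 and 165 under NU7441, so its NU7441 arrays lay far apart. The remaining genes that rose under NU7441 were GDF15, SESN1, SESN3, ASS1, SEPSECS and DALRD3, and those that fell were JDP2, EIF4EBP1, MTHFD1L and ODC1.

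Among these, the leucine-sensor relatives SESN1 and SESN3 rose under NU7441 (1.26 ± 0.17 and 0.85 ± 0.15), and both were lower after knockdown than under NU7441 (−0.96 and −0.61, adjusted p = 0.0123 and 0.0409). ASS1, the argininosuccinate synthase of arginine supply, rose 1.05 ± 0.16 and was likewise lower after knockdown than under NU7441 (−0.74, adjusted p = 0.0275). EIF4EBP1, the translation repressor that mTORC1 inactivates, fell under NU7441 (−0.48 ± 0.13) and was higher after knockdown than under NU7441 (0.84, adjusted p = 0.00857). For knockdown against control it was at 0.36 ± 0.13 and did not pass (adjusted p = 0.191). ODC1, which makes putrescine from ornithine, fell under NU7441 (−0.58 ± 0.08) and was likewise higher after knockdown than under NU7441 (0.58, adjusted p = 0.00586), with −0.01 ± 0.08 for knockdown against control. MTHFD1L, a mitochondrial one-carbon enzyme, fell under NU7441 (−0.91 ± 0.23, adjusted p = 0.0175). EIF2AK1 and SEPSECS were the other genes that differed between the treatments, both lower after knockdown than under NU7441 (−0.87 and −1.05, adjusted p = 0.00431 and 0.0427).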

How the data were processed

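RNA from 6 cultures was, per the labels' protocols, extracted with Trizol, amplified to cDNA, labelled with biotin and hybridised to 1-colour arrays. Each probeset has a linear intensity on each array, as deposited; how the authors summarised and normalized it, and on which genome build, is not given in the sources used here. Here log2 was taken with no further scaling. Probesets were named from the platform table (15835 of 44629 with 1 symbol, 28794 unnamed here), and all 15835 gene identifiers matched the GRCh38.p14 gene table, with 0 symbols changed. The brightest probeset by mean log2 value stood for each of the 651 genes with several. 0 value columns belonged to no sample.

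Limma 3.58.1 in R 4.3.3 was fitted to all 14812 genes and 6 arrays (3 residual degrees of freedom, mean-variance trend, two-sided, p adjusted by Benjamini-Hochberg over every gene tested, threshold 0.05), and was tested on simulated data. Replicates are labelled biological, and the number of arrays limits the precision. The members and gene lists were chosen with earlier results of these data known. Values in every array were to be given for a core of regulators, enzymes and synthetases and for up to 4 highest and 4 lowest genes past the threshold in each class; in the end all 33 are given. Alternatives were quantile normalization, median centring, 15 subtracted from each intensity, dim genes left out, no trend, the compared groups alone, the mean of probesets, a replicate block, and each array left out.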

Additional observations from a re-analysis of the deposited data

How the results depend on the processing

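Under NU7441, where 16 members passed, the count was 13 to 16 under the settings that kept every array, except 10 without the mean-variance trend, and 11 with the compared groups alone; leaving out 1 array gave 4 to 22. After knockdown, where 1 member passed, the count was 3 with quantile normalization, 5 with median centring, 2 with dim genes left out, 15 with the compared groups alone, and 0 in limma's test with the offset of 15 taken off or without the trend (11 and 12 members at an unadjusted p under 0.05); leaving out 1 array gave 0 to 15. Between the treatments 6 became 1 without the trend and 2 with the compared groups alone, and 0 to 14 with 1 array left out. All called directions were kept in every alternative except VARS1 under NU7441, at −0.27 with the mean of its probesets. With a replicate block 13, 1 and 5 members passed. Same-numbered arrays did not deviate together over genes (correlations of −0.005, −0.013 and −0.068). The labels state no pairing, and these correlations cannot tell whether same-numbered cultures were handled together. Where 1 array was left out, the lone array was assumed to vary like the other groups. With 2 arrays per group, and a lower limit of 16 on all values, small changes of dim genes such as SESN2 and HARS1 are not resolved. The causes of these shifts were not tested.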
